A study of Rattus norvegicus with 12 samples.

Results

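The genes described here are 9 rat genes of the cytoskeleton, most of them tied to actin, and of the transcription factor SRF: Srf, Fhl2, Tpm3, Tpm4, Actn1, Cald1, Ezr, Vim and Tubb6. Of these, Vim belongs to the intermediate filaments and Tubb6 to the microtubules. They were chosen by name with earlier results of these data known, so counts set beside all probes describe them and test nothing. Every probe that the array's platform annotation assigns to one of these symbols was taken. This gave 10 probes, 2 of them for Tpm3, out of 22517 probes on the array, of which 13787 carry a gene symbol, for 13336 genes. The arrays were Illumina rat bead arrays hybridised with biotin-labelled total RNA from rat tail tendon fascicles, the thin collagen bundles between whose fibres the tendon cells lie. The 4 groups of 3 arrays were fascicles held under cyclic tensile strain for 24 h in vitro, unstrained fascicles at 24 h, fascicles strained for 1 h and unstrained fascicles at 1 h. The labels give no strain of rat, age, strain amplitude or frequency, and leave unstated if the 3 replicates were from different animals or cultures, so the p-values rest on a spread between samples that may be only technical. All samples were whole tissue taken into culture, and no uncultured tendon was measured.

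Actin filaments carry the tension of a cell, and tropomyosins, caldesmon and alpha-actinin coat, regulate or crosslink them. Free actin monomers hold the MRTF cofactors in the cytoplasm. When monomers are used up by filament assembly, MRTFs enter the nucleus and join SRF, which binds a DNA element called the CArG box in the promoters of many cytoskeletal genes and of its own gene. SRF also works with ternary complex factors of the Elk family, which answer growth factor signalling at immediate early genes such as Fos and Egr1. In tendon the cells sit in rows along the fibres and are loaded when the tissue is stretched.

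Promoter sequences are shown because the CArG box is the element through which SRF acts, and they were available for all 9 genes in RefSeq (13 promoters, GRCr8 build, each from 250 bases before to 50 bases after a transcript start). The box is CC, then any 6 bases of A or T, then GG, and it reads as the same pattern on both strands. The 250 bases before the start are printed 5′ to 3′ on the strand of the gene, with CArG boxes in capitals. The Srf promoter lies at chr9:21923826-21924075 on the plus strand, the first Fhl2 promoter at chr9:52923327-52923576 and the other at chr9:52954541-52954790, both on the minus strand, and the Ezr promoter at chr1:49416574-49416823 on the minus strand.
Srf: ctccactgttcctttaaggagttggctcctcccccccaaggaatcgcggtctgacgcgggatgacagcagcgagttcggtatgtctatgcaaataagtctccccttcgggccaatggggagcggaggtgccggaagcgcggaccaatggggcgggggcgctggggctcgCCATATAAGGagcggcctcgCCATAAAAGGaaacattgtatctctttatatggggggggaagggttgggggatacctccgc
Fhl2, first promoter: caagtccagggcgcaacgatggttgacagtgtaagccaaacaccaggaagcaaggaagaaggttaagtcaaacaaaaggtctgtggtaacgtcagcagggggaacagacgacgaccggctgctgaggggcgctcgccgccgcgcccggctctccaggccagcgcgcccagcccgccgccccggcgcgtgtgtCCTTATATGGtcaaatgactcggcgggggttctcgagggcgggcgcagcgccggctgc
Fhl2, other promoter: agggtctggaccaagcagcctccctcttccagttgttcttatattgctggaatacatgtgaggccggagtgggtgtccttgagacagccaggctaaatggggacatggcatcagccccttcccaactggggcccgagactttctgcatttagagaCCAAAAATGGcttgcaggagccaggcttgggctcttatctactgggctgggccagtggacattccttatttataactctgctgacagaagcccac
Ezr: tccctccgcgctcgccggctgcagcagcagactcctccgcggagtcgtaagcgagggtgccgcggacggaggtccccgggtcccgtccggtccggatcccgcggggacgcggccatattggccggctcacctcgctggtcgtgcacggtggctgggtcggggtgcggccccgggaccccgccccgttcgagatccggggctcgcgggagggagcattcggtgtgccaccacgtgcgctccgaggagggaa
The Srf promoter holds 2 boxes, CCATATAAGG beginning 81 bases before the start and CCATAAAAGG beginning 61 bases before it. Each Fhl2 promoter holds 1, CCTTATATGG beginning 58 bases before the start and CCAAAAATGG beginning 95 bases before it. The window of Ezr, printed as the other gene that differed with strain at 24 h, held no match, and neither did the windows of the 6 other genes (Tpm3 on chromosome 2, Cald1 on 4, Actn1 on 6, Tpm4 on 16, Vim on 17 and Tubb6 on 18). A box was therefore found in 2 of the 9 genes, against 81 of 6505 genes kept on the array with a promoter entry (1.25%) and 485 of 27457 genes in the table (1.77%). Among 71 other genes of the actin, myosin, adhesion, tubulin and immediate early lists it was found in 6 (8.45%), namely Acta1, Egr1, Egr2, Fhl1, Lima1 and Svil, none of which passed the test for strain at either time. The GC box, GGGCGG on either strand, was present in all 9 genes, against 59.8% of kept genes and 80.3% of the other list genes. A gene was counted where any of its promoters held the letters. By promoter the GC box was in 10 of the 13 (76.9%), against 33.1% of all promoters. The letters TATAAA on either strand were present in 4 of the 9, against 9.38% of kept genes, and in these promoters they overlapped no CArG box. A match or its absence describes these letters in this window only.

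Values are the deposited intensities, on a linear scale, in the order of replicates 1, 2 and 3. Each array had a median intensity of 57.0, and the lowest value in the table was 33.7, so a background remains in every value and the change of a dim probe is understated. Log2 fold changes (log2FC) come from limma fitted to the 11258 probes in the upper 50% by mean log2 intensity, with Benjamini-Hochberg adjustment over all of them, and a gene is said to have risen or fallen where adjusted p was under 0.05. All 10 probes passed this filter. In bulk tissue, fewer cells of a type and less RNA per cell cannot be told apart.

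After 24 h of strain, Fhl2 was at 1.98 times and Ezr at 1.60 times its level in unstrained fascicles at that time. Ezr fell with time in both sets of fascicles (log2FC -0.70 in strained and -1.16 in unstrained ones), so its difference is no rise over 1 h. Fhl2 and Ezr were 2 of the 9 genes called higher with strain. Of all probes tested 0.968% were called higher and 2.34% were called in either direction. None of the 9 was called lower, where 1.37% of all probes were. Log2FC was above 0 in 8 of the 9, where 53.0% of all probes were above 0, and its median over the 9 was 0.39, against 0.01 over all probes. In 5 genes (Fhl2, Tpm3, Actn1, Ezr and Tubb6) all 3 strained arrays lay above all 3 unstrained arrays, as did 11.2% of all probes. The 9 genes were chosen with earlier results known, so none of these shares tests the set.

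**Figure D1:**
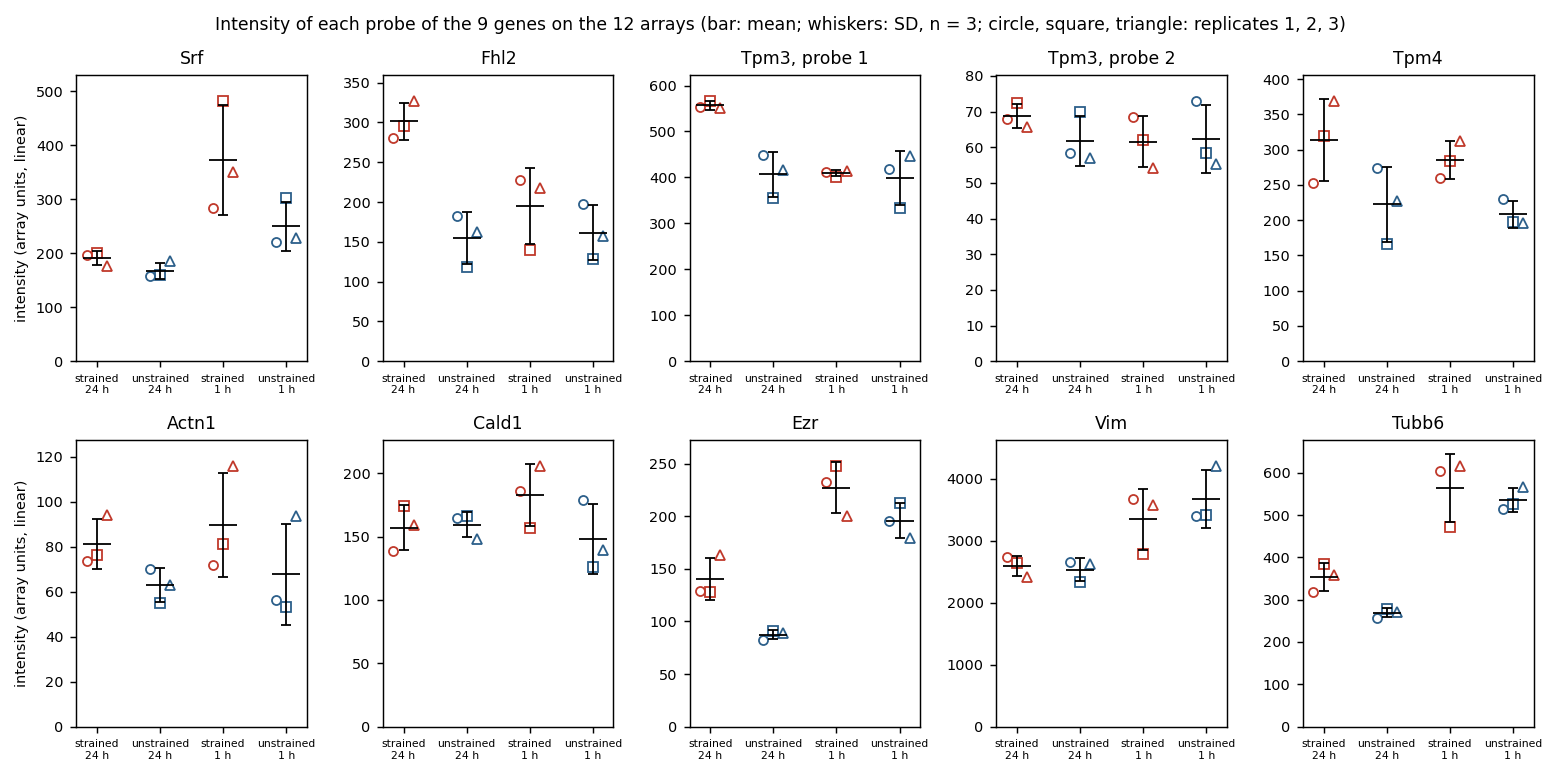
Deposited intensity (array units, linear axis from 0) of the 10 probes of the 9 genes, 1 panel a probe, with 1 point per array (circle, square and triangle for replicates 1, 2 and 3), a bar at the mean and whiskers of 1 SD for each group of 3 arrays. At 24 h the strained points of Fhl2 (281 to 327) and Ezr (128 to 163) stand above the unstrained ones (118 to 182 and 82.3 to 90.6), while the Vim points of strained and unstrained fascicles lie among each other.

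After 1 h of strain none of the 9 genes was called by limma (0% of all probes were called), and adjusted p was 0.943 or more. At an unadjusted p under 0.05 there were 2 of the 9 (Srf and Tpm4), against 4.90% of all probes. Log2FC was above 0 in 8 of the 9, against 49.6% of all probes, with a median of 0.27 against 0.00. The strained and unstrained arrays at 1 h pair by replicate number, since same-numbered arrays deviated together from their group means. When the replicate number was added to the fit as a block within time, limma called 23 probes at 1 h instead of 0, and again none of the 9 genes was among them. In Srf, Fhl2, Tpm4, Actn1, Cald1 and Ezr each strained 1 h array was above its same-numbered unstrained one. In Tpm3, Vim and Tubb6 the sign varied between pairs. The share of all probes with 1 sign in every pair is not given here. Unless the block is named, SE and adjusted p at 1 h below are from the fit without it.

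Srf, the transcription factor itself, had intensities of 196, 201 and 177 in fascicles strained for 24 h, against 158, 160 and 185 in unstrained fascicles at 24 h. These groups overlapped, and the log2FC was 0.19 ± 0.18 (SE, n = 3 arrays a group, adjusted p = 0.791). At 1 h it stood at 283, 483 and 351 in strained fascicles, against 220, 302 and 228 in unstrained fascicles. The second array was the highest in both groups, so the groups overlapped, but within each replicate number the strained array was the higher one, by 0.36, 0.68 and 0.62 on the log2 scale. Strain at 1 h gave a log2FC of 0.55 ± 0.18, at the 99.7th percentile of all probes tested, with an adjusted p of 0.943 in limma and of 0.0968 with the replicate block, so the gene did not pass the test either way. Without strained replicate 2 at 1 h the log2FC was 0.35, and over all arrays left out in turn it ranged up to 0.73.

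Fhl2 encodes a LIM-only adaptor protein that binds integrins, actin-linked proteins and transcription factors, SRF among them. Its intensities were 281, 295 and 327 in fascicles strained for 24 h, against 182, 118 and 162 in unstrained fascicles at 24 h. Every strained array lay well above every unstrained one, and the log2FC was 0.99 ± 0.21 (adjusted p = 0.0357, 95% interval 0.53 to 1.45). The call did not outlast the loss of any 1 of the 6 arrays at 24 h: without strained replicate 1, 2 or 3 adjusted p was 0.0656, 0.128 and 0.115, and without unstrained replicate 1, 2 or 3 it was 0.0520, 0.122 and 0.0825, while the log2FC stayed between 0.81 and 1.12. At 1 h the values were 228, 140 and 217 in strained fascicles, against 197, 129 and 158 in unstrained fascicles. The second array was the lowest of its group on both sides, the groups overlapped, and the log2FC was 0.27 ± 0.21 (adjusted p = 0.991), with 0.11 without unstrained replicate 2 and 0.49 without strained replicate 2.

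The 2 tropomyosins of the set form rods that lie along the actin filament and set which other proteins reach it. Tpm3, read by the brighter of its 2 probes (ILMN_1649963), had 553, 567 and 550 in fascicles strained for 24 h, against 450, 354 and 416 in unstrained fascicles at 24 h. The 3 strained arrays lay close together and above the other 9 arrays of the study. The log2FC was 0.46 ± 0.12, with an adjusted p of 0.0693, which misses the threshold. At 1 h the strained fascicles had 412, 402 and 413 and the unstrained ones 419, 333 and 446, which overlap (log2FC 0.05 ± 0.12, adjusted p = 0.995).

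The other Tpm3 probe (ILMN_1363774), annotated to a different RefSeq transcript of the gene, was near background, at 54.1 to 73.1 over all 12 arrays. At 24 h it had 67.8, 72.3 and 65.7 in strained fascicles, against 58.4, 69.8 and 56.9 in unstrained fascicles, which overlap (log2FC 0.16 ± 0.13, adjusted p = 0.740). The 2 probes varied together only loosely, with a correlation of log2 intensity of 0.306 over the 12 arrays, as a description. With the mean of both probes in place of the brighter one, the log2FC of Tpm3 at 24 h was 0.31 (adjusted p = 0.128).

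Tpm4 had 253, 319 and 370 in fascicles strained for 24 h, against 274, 167 and 227 in unstrained fascicles at 24 h. The lowest strained array lay below the highest unstrained one, and the log2FC was 0.51 ± 0.18 (adjusted p = 0.199). At 1 h it was the 1 gene of the 9 whose groups parted, with 259, 285 and 313 in strained fascicles, against 231, 198 and 197 in unstrained fascicles. All 3 strained arrays were above all 3 unstrained ones, which 3.91% of all probes also showed, and the log2FC was 0.46 ± 0.18 (adjusted p = 0.964).

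Actn1 encodes alpha-actinin, which crosslinks actin filaments at adhesions and stress fibres. Its probe was dim, at 73.5, 76.0 and 93.8 in fascicles strained for 24 h, against 70.2, 55.1 and 62.9 in unstrained fascicles at 24 h. At 1 h it had 72.0, 81.2 and 116 in strained fascicles, against 56.3, 53.2 and 93.4 in unstrained fascicles. The 24 h groups did not overlap, though by a gap of only a few units, and the 1 h groups did overlap. Within each replicate number the strained 1 h array was the higher one, by 0.36, 0.61 and 0.31 on the log2 scale. Log2FC was 0.37 ± 0.22 at 24 h (adjusted p = 0.572) and 0.43 ± 0.22 at 1 h (adjusted p = 0.981), the 1 h value being 0.23 without strained replicate 3 and 0.68 without unstrained replicate 3.

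Cald1 encodes caldesmon, an actin-binding protein that restrains myosin on the filament. It had 138, 174 and 159 in fascicles strained for 24 h, against 164, 166 and 148 in unstrained fascicles at 24 h (log2FC -0.03 ± 0.14, adjusted p = 0.981). At 1 h the values were 186, 157 and 206 in strained fascicles, against 179, 126 and 139 in unstrained fascicles (log2FC 0.31 ± 0.14, adjusted p = 0.981). The groups overlapped at both times, and the 24 h interval, -0.34 to 0.29, leaves room for a modest difference either way.

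Ezr encodes ezrin, of the ezrin, radixin and moesin family that ties the cell membrane to cortical actin. Its intensities were 129, 128 and 163 in fascicles strained for 24 h, against 82.3, 90.6 and 89.2 in unstrained fascicles at 24 h. The lowest strained array was still clearly above the highest unstrained one, and the log2FC was 0.67 ± 0.12 (adjusted p = 0.0151, 95% interval 0.41 to 0.93). Without strained replicate 3 the log2FC was 0.56 with an adjusted p of 0.0532, and without unstrained replicate 1 it was 0.63 with an adjusted p of 0.0609, while the call held without any other single array. At 1 h Ezr had 233, 248 and 201 in strained fascicles, against 196, 213 and 180 in unstrained fascicles. These groups overlapped, with each strained array above its same-numbered unstrained one, and the log2FC was 0.21 ± 0.12 (adjusted p = 0.981).

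Vim encodes vimentin, the intermediate filament protein of fibroblasts and other mesenchymal cells, and its probe was brighter than 99.4% of probes. It had 2731, 2644 and 2413 in fascicles strained for 24 h, against 2653, 2327 and 2621 in unstrained fascicles at 24 h. At 1 h it had 3675, 2784 and 3572 in strained fascicles, against 3392, 3416 and 4208 in unstrained fascicles. The strained and unstrained arrays overlapped at both times. Log2FC was 0.04 ± 0.13 at 24 h (adjusted p = 0.969, 95% interval -0.24 to 0.31) and -0.14 ± 0.13 at 1 h (adjusted p = 0.991).

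Tubb6 encodes a beta-tubulin, a building block of microtubules. At 24 h it had 318, 384 and 358 in strained fascicles, against 257, 279 and 272 in unstrained fascicles. Each strained array was above each unstrained array, and the log2FC was 0.39 ± 0.11, with an adjusted p of 0.113 that misses the threshold. At 1 h it had 604, 471 and 616 in strained fascicles, against 513, 526 and 567 in unstrained fascicles, which overlap (log2FC 0.07 ± 0.11, adjusted p = 0.994).

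Whether the effect of strain differed between 24 h and 1 h was tested as the interaction. None of the 9 genes was called in limma, with 0.0799% of all probes called, and 3 of the 9 had an unadjusted p under 0.05, against 8.15% of all probes. These were Ezr, with a difference in log2FC of 0.46 ± 0.17 (adjusted p = 0.431), Tpm3 with 0.41 ± 0.17 (adjusted p = 0.500) and Fhl2 with 0.72 ± 0.30 (adjusted p = 0.529). Each of the 3 was larger at 24 h, and for Srf the difference was -0.36 ± 0.25 (adjusted p = 0.767). The effects of strain on Fhl2 and Ezr are therefore not shown to differ between the 2 times.

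**Figure D2:**
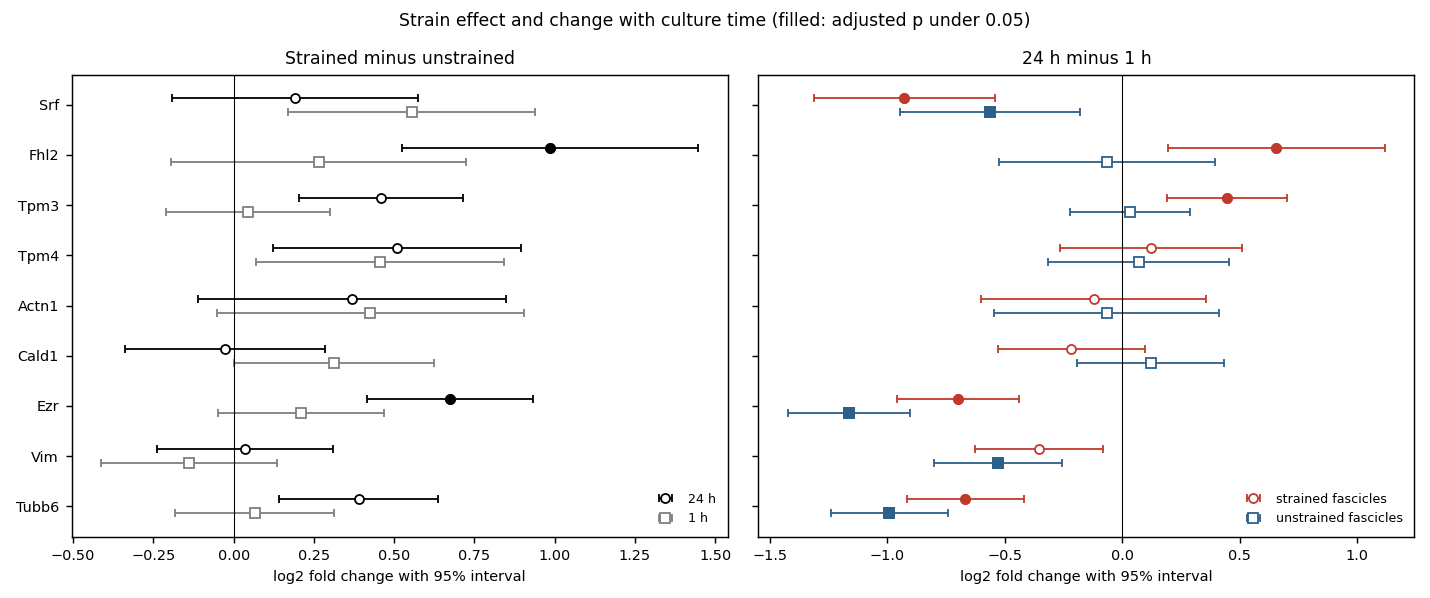
Log2 fold changes of the 9 genes with 95% intervals from limma, for strained minus unstrained fascicles at 24 h and 1 h (left) and for 24 h minus 1 h in strained and in unstrained fascicles (right), with filled points where adjusted p was under 0.05. Fhl2 (0.99) and Ezr (0.67) are filled on the left, and Ezr, Tubb6 and Srf lie below 0 in both sets of fascicles on the right.

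More of these genes were called for time in culture than for strain. In unstrained fascicles 4 of the 9 were lower at 24 h than at 1 h, where 7.42% of all probes were called lower and 17.2% in either direction, and none was called higher, where 9.83% of all probes were. Ezr had a log2FC of -1.16 ± 0.12 (adjusted p = 7.96e-05), Tubb6 -0.99 ± 0.11 (adjusted p = 0.000176), Vim -0.53 ± 0.13 (adjusted p = 0.0124) and Srf -0.56 ± 0.18 (adjusted p = 0.0454). In each of the 4 the 24 h arrays lay wholly below the 1 h arrays, as in 15.5% of all probes. The Vim call was lost without unstrained 1 h replicate 3 (adjusted p = 0.0524) or unstrained 24 h replicate 2 (0.0515). The Srf call was lost without 9 of the 12 arrays taken 1 at a time, with adjusted p of up to 0.159, that highest value without unstrained 1 h replicate 2. It was kept only without strained 1 h replicate 1, strained 1 h replicate 2 or unstrained 1 h replicate 1.

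In strained fascicles 5 of the 9 were called, 3 lower and 2 higher at 24 h than at 1 h, where 8.52% of all probes were called lower, 12.2% higher and 20.7% in either direction. Srf fell, with a log2FC of -0.93 ± 0.18 (adjusted p = 0.00285), as did Ezr with -0.70 ± 0.12 (adjusted p = 0.00142) and Tubb6 with -0.67 ± 0.11 (adjusted p = 0.00145). The higher ones were Fhl2, with 0.66 ± 0.21 (adjusted p = 0.0452), and Tpm3, with 0.45 ± 0.12 (adjusted p = 0.0176). Without strained 1 h replicate 2, the array with the low Fhl2 value of 140, the log2FC of Fhl2 was 0.43 and its adjusted p 0.159, and the call was also lost without strained 1 h replicate 3, unstrained 1 h replicate 3, unstrained 24 h replicate 3 or any strained 24 h array. That of Tpm3 was lost without strained 24 h replicate 2 (adjusted p = 0.0587). Vim had -0.36 ± 0.13 and an adjusted p of 0.0652, which became 0.0152 without strained 1 h replicate 2 and 0.0490 without unstrained 1 h replicate 3. The strained and unstrained time courses share no arrays, and their difference is the interaction given above. The strained 24 h arrays enter both this comparison and that of strain at 24 h, so the values of Fhl2 and Tpm3 in the 2 comparisons are not separate evidence.

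The order of the group means is given here as a description. In Ezr, Tubb6 and Srf the strained 1 h group was highest, with means of 227 ± 24.2, 564 ± 80.3 and 372 ± 102 (SD, n = 3 each), and the unstrained 24 h group lowest, with 87.4 ± 4.45, 269 ± 10.9 and 168 ± 15.0. The 1 h groups overlapped each other in all 3 genes and lay above both 24 h groups, and the strained and unstrained 24 h groups were apart in Ezr and Tubb6 but not in Srf. In Fhl2 and Tpm3 the strained 24 h group stood alone, at 301 ± 23.8 and 557 ± 9.17, with the other 3 groups overlapping at means of 154 to 195 and 399 to 409. Vim was highest in the unstrained 1 h group (3672 ± 464), which overlapped the strained 1 h group (3344 ± 488), and both lay above the strained 24 h group (2596 ± 165) and the unstrained 24 h group (2534 ± 180), which overlapped. In Tpm4, Actn1 and Cald1 every pair of neighbouring groups overlapped.

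Of the wider cytoskeleton and SRF lists, 131 further gene symbols were listed, 102 were on the array and 82 passed the filter. After 24 h of strain 1 of the 82 was called, where 2.34% of all probes were. This was Lmnb2, which encodes a B-type lamin of the nuclear envelope. It had 109, 109 and 141 in strained fascicles, against 89.1, 76.9 and 80.5 in unstrained fascicles, with a log2FC of 0.53 ± 0.12 (adjusted p = 0.0446). All strained arrays were above all unstrained ones, as in 11.2% of all probes. The call was lost without any 1 of 10 of the 12 arrays. Adjusted p in limma then ranged up to 0.154, the highest without unstrained 24 h replicate 2. The call was kept only without strained 1 h replicate 3 or unstrained 1 h replicate 3. Log2FC at 24 h was above 0 in 57 of the 82 genes, with a median of 0.10, against 53.0% of all probes. After 1 h of strain none of the 82 was called by limma without the replicate block, nor was any other probe. Log2FC at 1 h was above 0 in 43 of the 82, against 49.6% of all probes, with a median of 0.01.

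Of 18 genes of these lists picked by name, 16 were on the array and 12 passed the filter. Acta2 and Tpm2 were not among the named probes, and Actg1, Myl9, Zyx and Cnn1 were below the filter. None of the 12 was called for strain in the fit used throughout, where 2.34% of all probes were called at 24 h and 0% at 1 h. At 24 h 11 of the 12 had a log2FC above 0, against 53% of all probes, with a median of 0.22. Actb, the cytoplasmic beta-actin, had 2475, 3109 and 3372 in fascicles strained for 24 h, against 2250, 1643 and 2234 in unstrained fascicles at 24 h, which do not overlap (log2FC 0.55 ± 0.16, adjusted p = 0.120). Flna, the actin crosslinker filamin A, had 671, 977 and 954 in strained fascicles, against 592, 634 and 650 in unstrained fascicles, which do not overlap either (log2FC 0.45 ± 0.18, adjusted p = 0.259). It was called for strain at 24 h in 1 of the 25 alternatives. The ezrin relatives Msn (moesin) and Rdx (radixin) had a log2FC at 24 h of 0.23 ± 0.12 and 0.08 ± 0.12. The tubulins Tubb5 and Tuba1b had 0.41 ± 0.17 and 0.31 ± 0.19, the tropomyosin Tpm1 0.23 ± 0.09, and the SRF cofactor Mrtfa 0.11 ± 0.18. Myh9, the heavy chain of non-muscle myosin, had 0.15 ± 0.09, the lamin gene Lmna 0.22 ± 0.31 and the adhesion gene Vcl, which encodes vinculin, 0.02 ± 0.17. Tagln, a smooth muscle actin-binding gene and textbook SRF target, was the exception, at -0.12 ± 0.13, with all strained arrays below all unstrained ones. In Tpm1, Myh9 and Msn, as in Actb and Flna, all strained arrays at 24 h were above all unstrained ones, which 11.2% of all probes also showed. The share of all probes with the strained arrays wholly below, as in Tagln, is not given here. The probes of Tagln, Tpm1, Myh9 and Vcl were dim, near the array median, where a change is understated. At 1 h log2FC was above 0 in 8 of the 12, against 49.6% of all probes, with a median of 0.03. The highest was Msn at 0.30 ± 0.12 (adjusted p = 0.964).

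**Figure D3:**
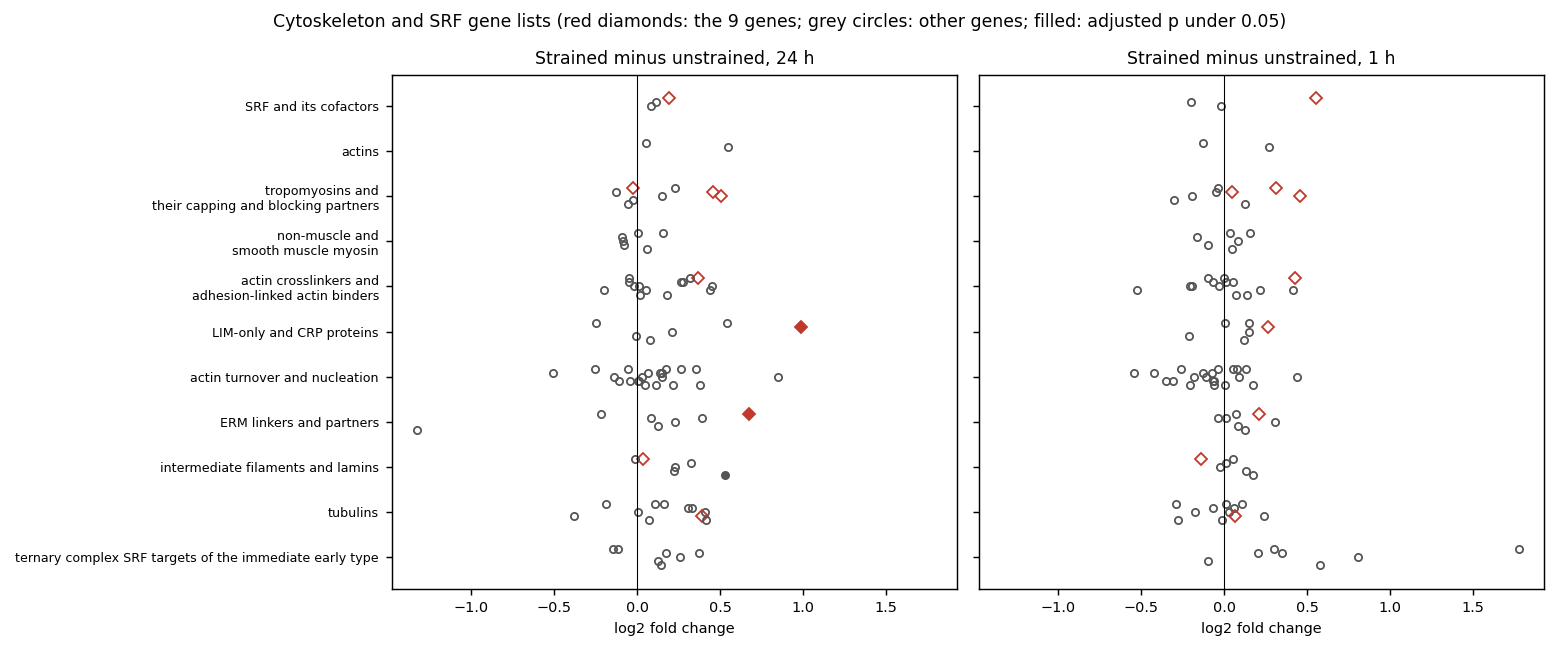
Log2 fold change for strain of each kept gene of 11 cytoskeletal and SRF lists, at 24 h (left) and at 1 h (right), 1 row a list, with red diamonds for the 9 genes, grey circles for the other list genes and filled points where adjusted p was under 0.05. At 1 h the median is 0.01 over the 82 other list genes, 0.35 over the immediate early list among them and 0.27 over the 9 genes. At 24 h Fhl2 (0.99) and Ezr (0.67) stand to the right of the rest of their lists, and the point at -1.32 is Nherf1, which was not called (adjusted p = 0.0515).

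The SRF targets of the immediate early type, which are induced within minutes and depend on ternary complex factors, had 7 kept genes of 9 listed. None was called for strain at 1 h in the fit without the replicate block, where the median log2FC was 0.35 and 6 of the 7 were above 0. Their result with the block, which takes up the pairing at 1 h, is not given here. Fos, singled out after its values were seen, had 1.77 ± 0.39 (adjusted p = 0.537) with overlapping groups. This log2FC was at the 100th percentile of all probes tested. In Egr2 (0.80, adjusted p = 0.943) and Ier2 (0.58, adjusted p = 0.964) all strained arrays at 1 h lay above all unstrained ones, as in 3.91% of all probes. Their log2FC was at percentiles 99.9 and 99.7. Those of Egr1, Egr3, Junb and Mcl1 ranged from percentile 23.7 (Egr3) to 98.4 (Mcl1). The groups of the other kept genes of this list overlapped. With time 6 of the 7 fell in strained fascicles and 6 of the 7 in unstrained fascicles, the same 6 (Fos, Egr1, Egr2, Ier2, Junb and Mcl1), with median log2FC of -2.37 and -1.94. Srf fell beside them in both sets of fascicles. Over the 82 list genes, 10 were higher and 12 lower at 24 h than at 1 h in strained fascicles, and 4 higher and 19 lower in unstrained fascicles. Over all probes 12.2% were higher and 8.52% lower with time in strained fascicles, and 9.83% higher and 7.42% lower in unstrained fascicles. Genes among these, named after their values were seen, were Gsn, the actin-severing protein gelsolin, with a log2FC of -2.62 in strained and -2.54 in unstrained fascicles, Plec, the cytolinker plectin, with -1.16 and -1.41, and Arpc1b, a subunit of the actin-nucleating Arp2/3 complex, with 1.03 and 0.83. Flna and Mrtfa were called higher with time in strained fascicles (log2FC 0.56 each), and Actb lower with time in unstrained fascicles (-0.59). With 1 array left out in turn, these calls held in 5 of 12 fits for Flna, 4 of 12 for Mrtfa and 8 of 12 for Actb.

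Markers of the tissue and of other cells moved with some of these groups. The 7 tenocyte markers on the array, of 11 listed, were all above the filter and bright, and the sum of their intensities was 27397 to 37618 in strained and 31798 to 38671 in unstrained fascicles at 24 h, against 45805 to 63115 and 43627 to 61346 at 1 h. Scx, Mkx, Comp and Tnc were not among the named probes, so the tendon label rests on Tnmd, Fmod, Thbs4, Lox, Dcn and the type I collagens. The summed level of 8 smooth muscle and pericyte markers at 24 h was 564 to 675 in strained fascicles, against 483 to 516 in unstrained fascicles, which do not overlap. Cspg4 alone, a pericyte proteoglycan, was at 158 to 238 in strained fascicles at 24 h, against 94.1 to 113 in unstrained fascicles. It was called higher with strain (log2FC 0.81, adjusted p = 0.0190), having fallen with time in unstrained fascicles. Without it the sums were 401 to 466 in strained and 388 to 408 in unstrained fascicles, which overlap. Of the 5 kept markers 4 had a log2FC above 0 at 24 h, with a median of 0.33: beside Cspg4 these were Smtn (0.51, adjusted p = 0.274), Des (0.33, adjusted p = 0.260) and Synpo2 (0.07), and Tagln had -0.12. The smooth muscle markers Cnn1 and Lmod1 and the pericyte marker Rgs5 were below the filter, and Myh11, Acta2 and Pdgfrb were not among the named probes. The 8 macrophage and leucocyte markers summed to 853 to 1500 in strained fascicles at 24 h, against 1352 to 1763 in unstrained fascicles at 24 h, with Cd53 lower (log2FC -0.63, adjusted p = 0.0290). At 1 h they summed to 1668 to 2839 in strained and 2512 to 4052 in unstrained fascicles. With time C1qa, C1qb, C1qc and Aif1 fell in both sets of fascicles, and the median log2FC of the 7 kept markers was -1.22 in strained and -1.53 in unstrained fascicles. Cd53 went the other way and was called higher with time in unstrained fascicles. Skeletal muscle, endothelial, nerve and keratinocyte markers had 3 of 9, 2 of 6, 3 of 5 and 0 of 4 above the filter. Among those of skeletal muscle Tnnt3 reached 144 and fell with time in unstrained fascicles (log2FC -0.93, adjusted p = 0.000871). The higher values of Fhl2 and Ezr at 24 h were in the same arrays as the higher Cspg4 and the lower Cd53 values. The falls of Ezr, Tubb6, Vim and Srf with time in unstrained fascicles, and of Ezr, Tubb6 and Srf in strained ones, came with lower macrophage and tenocyte sums at 24 h. The part of other cell types in these results was not tested.

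Among the 9 genes, the log2 intensities of Ezr and Tubb6 had a correlation of 0.913 over the 12 arrays and those of Fhl2 and Tpm3 one of 0.882. Of the 36 pairs 28 were above 0, with a median of 0.264. The share above 0 over pairs of all probes is not given here. The arrays of a group share their treatment and time. For deviations from the group means the value was -0.325 for Ezr and Tubb6 and 0.665 for Fhl2 and Tpm3, and 22 of the 36 pairs were above 0, with a median of 0.132. Ezr and Tubb6 had 0.891 over the 24 h arrays and -0.355 over the 1 h arrays. The named genes most like each of the 9 by this measure were Usp2, Ccn1 and Zfp653 for Srf (0.923 to 0.928), Zpr1, Snai1 and Lmnb2 for Fhl2 (0.893 to 0.894) and Dynll1, Tra2b and Tm4sf1 for Ezr (0.947 to 0.979). Ccn1 encodes a secreted matricellular protein, Snai1 a zinc finger transcription factor and Dynll1 a dynein light chain. For Srf the likeness to Usp2 was 0.162 over the 6 arrays at 24 h, against 0.920 over the 6 arrays at 1 h, while that to Ccn1 was 0.809 at 24 h and 0.789 at 1 h. The nearest to Tubb6 were Arf2, Loxl2 and Akirin2 (0.961 to 0.969), to Vim Gfpt2, Cmip and Anxa5 (0.934 to 0.941), and to Tpm3 Cox5a, Eif4b and Adsl (0.909 to 0.918). Lower values were reached for Actn1 with Tpcn1, Slc38a4 and Ide (0.867 to 0.883), for Tpm4 with Hm13, Trim28 and Prep (0.831 to 0.857) and for Cald1 with Ufl1, Mdk and Terf2 (0.823 to 0.851). Each gene was picked as the highest among the named kept probes, so high values over the 12 arrays are built in. Within a time some were low, as Ezr with Tm4sf1 at 1 h (0.0592) and Vim with Gfpt2 at 24 h (0.380). Others stayed high, as Ezr with Dynll1 (0.974 at 24 h and 0.881 at 1 h).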

How the data were processed

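RNA from 12 rat tail tendon fascicle samples was read on Illumina rat bead arrays, 1 array a sample. The values used are the intensities of 22517 probes that the authors deposited, on a linear scale. They were already normalized between arrays: once sorted, the 12 columns match to within 0.0928%, the state in which quantile normalization leaves data. For software, version and background correction the sources used here state nothing. Another deposited table names its columns only by number, and its 24 columns of per-sample values were not used. RNA was extracted with Trizol and cleaned on columns, per the labels' protocols.

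From the intensities, log2 values were fitted with limma 3.58.1 in R 4.3.3: a mean for each of the 4 groups, 8 residual degrees of freedom and 5 contrasts (strain at 1 h, strain at 24 h, their difference, and time in strained and in unstrained fascicles). Probes were kept in the upper 50% by mean log2 intensity (11258 probes, the dimmest with a mean of 56.2). P-values are two-sided, adjusted over all kept probes, with a threshold of 0.05. For a gene with several probes the brightest was used. Precision is limited by the number of arrays, and the median SE of a log2 fold change was 0.12. On simulated data for strain at 24 h with 11258 probes, the fit recovered 91 of 100 probes changed by 1 and 98 of 100 changed by 2 on the log2 scale, with 10 false calls. Arrays of a group correlated at 0.969 to 0.985 over all probes.

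Symbols came from GEO's platform annotation, and comparison with the current rat gene table changed 0 of them. The genes and lists were chosen with earlier results of these data known. Named genes were the 9 genes by all their probes, 18 list genes whatever their values, every list gene called for strain, and for each of the 9 the 3 named genes with the highest correlation of log2 values over the 12 arrays. Replicate numbers in the titles were tested for pairing by correlating same-numbered deviations from the group means. At 1 h these were 0.604, 0.537 and 0.521, so the numbers pair the samples, and at 24 h 0.0387, 0.309 and 0.388, where replicate 1 was under the limit of 0.1, so they were not taken as pairs. The alternatives tried were other filters, background and pseudocount settings, scaling by cyclic loess or the median, variance and array weights, probe averaging, the replicate block, fits of the compared groups alone, and each array left out in turn.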

Additional observations from a re-analysis of the deposited data

How the results depend on the processing

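The direction of the strain effect of Fhl2 and of Ezr at 24 h held in all 25 alternatives, and the calls in 19 and 23 of them, with the exceptions given above, all of them arrays left out. The number of the 9 genes called for strain at 24 h was 2, and it was 4 with array weights and 4 under the replicate block within each time. The added genes were Tpm3 (adjusted p 0.0320 and 0.0265) and Tubb6 (0.0394 and 0.0385). With the replicate block fitted on the 24 h arrays alone the number was 2, without Tpm3 (0.0530) and Tubb6 (0.0543). Tpm3 was also called with the replicate block over all arrays (0.0421) and without unstrained 1 h replicate 2 (0.0400). At 24 h the replicate numbers are not shown to pair the samples. With 1 array left out, 0 to 3 genes were called for strain at 24 h, 2 to 4 for time in unstrained fascicles and 3 to 5 for time in strained fascicles. No gene of the 9 was called for strain at 1 h or for the difference under any alternative run. For time in unstrained fascicles Srf was lost with no filter on dim probes (adjusted p 0.0583) and with a pseudocount of 50 (0.0703). For time in strained fascicles Fhl2 was lost with no filter (0.0600) and with cyclic loess (0.0730), Tpm3 with cyclic loess (0.0808), and Vim was gained with cyclic loess (0.0173) and the replicate block over all arrays (0.0481). Signs near 0 turned for Vim at 24 h with cyclic loess (-0.037), for Tpm3 with time in unstrained fascicles under the same setting (-0.043) and for Fhl2 with time in unstrained fascicles under array weights (0.021). With 1 array left out, log2FC for strain at 1 h ranged from -0.080 to 0.13 in Tpm3, -0.0039 to 0.19 in Tubb6, -0.25 to 0.41 in Lmna, -0.012 to 0.081 in Myh9, -0.051 to 0.053 in Rdx, -0.17 to 0.071 in Tagln, -0.13 to 0.24 in Tuba1b, -0.033 to 0.11 in Tubb5 and -0.10 to 0.27 in Vcl. For strain at 24 h it ranged from -0.10 to 0.062 in Cald1, -0.025 to 0.087 in Vim, -0.0063 to 0.19 in Rdx and -0.018 to 0.082 in Vcl. For the difference it ranged from -0.31 to 0.14 in Actn1 and -0.14 to 0.22 in Tpm4. For time in strained fascicles it ranged from -0.27 to 0.077 in Actn1 and -0.0046 to 0.27 in Tpm4. For time in unstrained fascicles it ranged from -0.22 to 0.19 in Actn1, -0.22 to 0.12 in Fhl2, -0.095 to 0.13 in Tpm3 and -0.10 to 0.26 in Tpm4. The cause of these shifts was not tested. Over all probes, strain at 1 h gave 0 calls, against 23 with the replicate block within each time, 32 with the block and only the 1 h arrays, 2 without unstrained 1 h replicate 1 and 1 with a variance trend and robust fit. Strain at 24 h gave 263, against 558 with array weights, 882 and 565 with the same blocks, and 69 to 307 with 1 array left out. The difference gave 9, against 19 with the variance trend and robust fit, 184 with the block within each time, 30 with the block over all arrays, and 7 to 16 with 1 array left out. Time in unstrained fascicles gave 1942, against 1227 without unstrained 24 h replicate 1. A block within each time could not be fitted for the contrasts between times, and under the stricter filter Actn1 dropped out. Actn1 and the dimmer Tpm3 probe lie near the array median, where the remaining background limits what fold can be seen.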
